A study of Gallus gallus with 9 samples.

Results

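RNA from the cornea of the chick embryo (Gallus gallus) was compared with RNA from the periocular neural crest it forms from. The 6 corneal libraries were pooled as cornea, 3 of them labelled corneal endothelium at embryonic day 5 (E5) and 3 labelled keratocytes and endothelium at embryonic day 7 (E7). They were set against the 3 libraries labelled periocular neural crest at embryonic day 3 (E3), so that all 9 libraries of the series entered. The labels name no mutant, treatment, transgene or strain, and they do not give the source of each library, a separate embryo or a pool, so p-values reflect the spread among these libraries alone, which may be technical. Of the 11727 genes tested, those described here are the 5202 in which every corneal library lay above, or every corneal library lay below, all E3 libraries. The 3826 of them that also passed the test and varied little among the corneal libraries are called steady, as set out below.

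Neural crest cells leave the dorsal neural tube and collect around the optic cup as periocular mesenchyme. In the chick they enter the space beneath the corneal epithelium in waves, first forming the corneal endothelium, the inner monolayer that controls hydration of the cornea, and later the keratocytes, the fibroblasts that lay down and maintain its collagen and proteoglycan stroma. Pooling both corneal stages asks which transcripts set the cornea apart from E3 crest under either corneal label. Every corneal library came from an older embryo than every E3 library, so tissue and embryonic age cannot be told apart for any gene below.

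The corneal libraries did not sort by their labels. Across genes, which are not independent replicates, Pearson correlations of log2(CPM + 1), where CPM is the count scaled to library size, were 0.981 to 0.985 among E5 libraries 1 and 2 and E7 library 3, and 0.975 to 0.981 among E5 library 3 and E7 libraries 1 and 2. Across these sets they were only 0.923 to 0.948. Correlations were 0.872 to 0.904 between cornea and E3, and 0.988 to 0.989 among the E3 libraries. Library totals ran from 9874339 to 23205388 expected counts in the cornea and from 18405559 to 22055958 at E3, and the 3 E7 libraries were the shallowest of the 9. With E5 library 3 and E7 library 3 both left out, 2297 genes were called higher and 2213 lower in the cornea. None of the 140 called genes examined for this lost its call, but most had been chosen by their values in these same libraries. The remaining libraries still came from both sets, so these counts cannot tell whether the labels are right.

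Markers of the labelled tissues were present in most but not all cases. The corneal libraries held AQP1, the water channel of corneal endothelium, at 524 to 1085 FPKM, the collagen gene COL8A2 of the endothelial basement membrane at 54.2 to 105 FPKM, and KERA, which encodes the keratan sulfate proteoglycan keratocan, at 601 to 1952 FPKM. KERA was this high in the libraries labelled endothelium alone as well. The borate and proton transporter gene SLC4A11, a marker of mature endothelium, stood at 0.62 to 0.87 FPKM in the cornea, against 1.04 to 1.18 FPKM at E3. The keratocyte crystallin gene ALDH1A1 was near 0, at 0.04 to 0.18 FPKM in the cornea, against 0.05 to 0.10 FPKM at E3. The E3 libraries held the crest factors SOX10 at 14.5 to 17.2, FOXD3 at 8.26 to 10.8 and PAX3 at 14.1 to 17.8 FPKM.

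In these bulk libraries, more RNA of a kind per cell and more cells of a kind cannot be told apart, for any gene below. The quasi-likelihood F-test of edgeR, with p-values adjusted by Benjamini-Hochberg over all genes tested, called 2602 genes higher in the cornea (22.2%) and 2488 lower (21.2%) at an adjusted p of 0.05. A log2 fold change of at least 1 was reached by 1363 of the higher genes (11.6% of the genes tested) and 709 of the lower genes (6.05%). The balance of directions depended on the scaling: 51.1% of the calls were higher with TMM factors, against 37.1% with library size alone, where the median log2 fold change of all genes was -0.12 rather than 0.04. Small changes are therefore read relative to that shift of the median.

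In 2544 genes the lowest corneal library lay above the highest E3 library (21.7%), and in 2658 genes the highest corneal library lay below the lowest E3 library (22.7%), together 44.4% of the genes tested, on CPM with TMM factors. Without the factors, these counts were 1929 and 3588. Both not overlapping and called were 2369 rises (20.2%) and 2379 falls (20.3%). A gene was called steady where its libraries did not overlap, where the test called it, and where its log2(CPM + 1) differed by at most 1 between the lowest and the highest corneal library, a limit that 74.0% of all genes tested kept. The steady genes numbered 1720 higher (14.7%) and 2106 lower (18.0%). Since these genes were chosen on the values compared, their counts and sizes are descriptions and carry no test. A gene near 0 in every corneal library has a narrow range on this scale by construction, so that steadiness says less of the strongest falls than of the rises. A steady gene can also still differ between the sets of corneal libraries described above. HTRA1 had 710 to 786 CPM in E5 libraries 1 and 2 and E7 library 3, and 397 to 428 CPM in the other set. MGARP had 100 to 113 and 153 to 180 CPM in the same order. Other steady genes, such as LMO7, overlapped between the sets.

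Of the genes called higher without overlap, 840 had a corneal range of at most 0.5, 880 had one of 0.5 to 1, 472 of 1 to 2, 151 of 2 to 4 and 26 of more than 4. The median log2 fold change in these bins was 0.58, 1.06, 1.98, 3.82 and 6.51. A wide range above all E3 libraries brings a large mean change by construction, so that no relation is read from these medians. Among genes called lower without overlap, the bins held 1465, 641, 223, 45 and 5 genes, with medians of -0.48, -0.91, -1.95, -3.29 and -5.64. The median corneal range was 0.637 among these rises, 0.427 among these falls and 0.595 over all genes tested. The median range over the E3 libraries was 0.225 over all genes tested. A range grows with the number of libraries, 6 for the cornea and 3 for E3, so the corneal and E3 ranges are not alike.

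**Figure D1:**
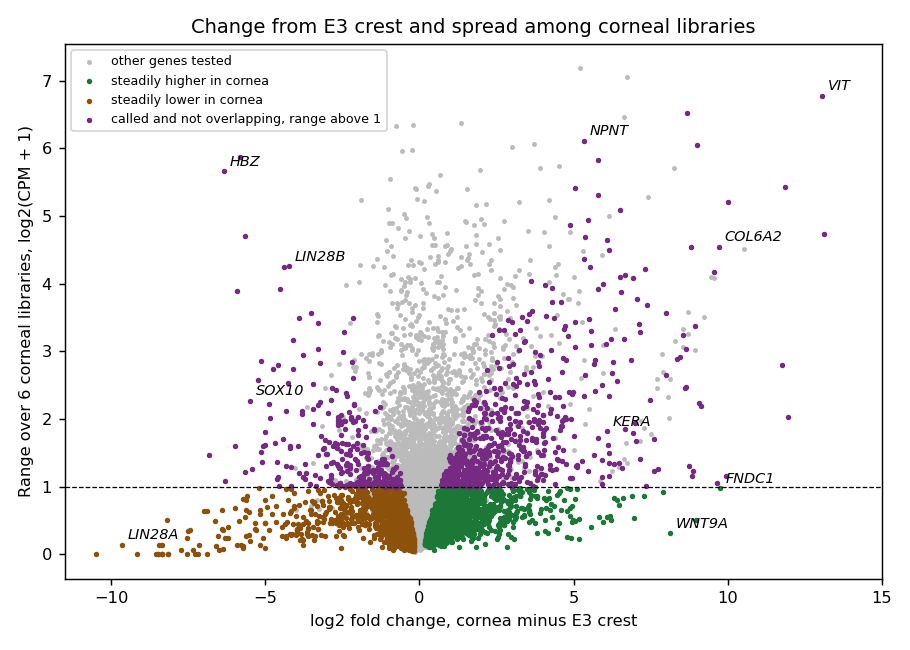
Change and spread of each gene tested. Each point is a gene; the x axis is the log2 fold change, cornea minus E3 crest, and the y axis the range of log2(CPM + 1) over the 6 corneal libraries, with the limit of 1 for steady genes dashed. Steady rises such as WNT9A and FNDC1 lie under the line, while VIT, NPNT and HBZ, with ranges of 6.78, 6.11 and 5.66, lie far above it.

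FNDC1, C4ORF19 and WNT9A were the 3 largest steady rises among genes that averaged at least 10 FPKM in the higher group, in that order. FNDC1, which encodes a protein with fibronectin type III domains (gene ID 421589), had 109, 145 and 202 FPKM in the cornea, against 0.17, 0.20 and 0.19 FPKM at E3 (for the cornea, here and below, the lowest, median and highest of the 6 libraries, and for E3 each library). It rose by the most of all steady genes that averaged at least 10 FPKM (log2 fold change 9.76 ± 0.31, estimate ± SE, adjusted p = 1.68e-07, edgeR quasi-likelihood test, as for every adjusted p below). WNT9A, which encodes a WNT ligand (395829), had 57.5, 63.7 and 76.1 FPKM in the cornea, against 0.44, 0.20 and 0.15 FPKM at E3 (log2 fold change 8.12 ± 0.26, adjusted p = 1.68e-07). Both genes were thus close to absent from every E3 library, and abundant in every corneal library under either label. With its range of 0.31, WNT9A was far the steadier of the pair.

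Genes of signalling ligands and other secreted proteins were also among the 10 largest. FGF16, which encodes a ligand of the FGF9 subfamily (422330), had 14.7, 22.1 and 25.9 FPKM in the cornea, against 0.27, 0 and 0.15 FPKM at E3 (log2 fold change 7.29 ± 0.60, adjusted p = 2.8e-05). DKK2, which encodes a secreted modulator of WNT co-receptors (422531), had 156, 217 and 245 FPKM in the cornea, against 1.94, 2.3 and 1.31 FPKM at E3 (log2 fold change 6.95 ± 0.26, adjusted p = 3.5e-07). The DKK2 range of 0.54 covered all 6 corneal libraries, the lowest of which was far above the E3 libraries. ISM1, which encodes the secreted protein isthmin (416740), had 13.4, 15.8 and 17.9 FPKM in the cornea, against 0.20, 0.06 and 0.12 FPKM at E3 (log2 fold change 6.07 ± 0.31, adjusted p = 1.93e-06). OLFML2B, which encodes a secreted olfactomedin domain protein (424366), had 123, 148 and 172 FPKM in the cornea, against 3.65, 3.21 and 3.63 FPKM at E3 (log2 fold change 5.55 ± 0.12, adjusted p = 2.48e-08). OLFML2B was already measurable at E3, and its SE was the smallest among the 10 largest steady rises.

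The other 4 of the 10 largest steady rises were C4ORF19, LOC423474, MGARP and VGLL3. MGARP, which encodes a mitochondrial protein (770869), had 53, 74.5 and 103 FPKM in the cornea, against 1, 0.74 and 1.32 FPKM at E3 (log2 fold change 6.32 ± 0.32, adjusted p = 1.83e-06). VGLL3, which encodes a cofactor of TEAD transcription factors (418462), had 12.2, 15.2 and 16.7 FPKM in the cornea, against 0.20, 0.22 and 0.26 FPKM at E3 (log2 fold change 6.18 ± 0.19, adjusted p = 1.68e-07). C4ORF19 (101747284) and LOC423474 (423474), for which no function is given here, rose by log2 fold changes of 8.97 ± 0.36 and 6.41 ± 0.24. They reached medians of 58.9 and 45.6 FPKM in the cornea, against at most 0.18 and 0.65 FPKM at E3.

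**Figure D2:**
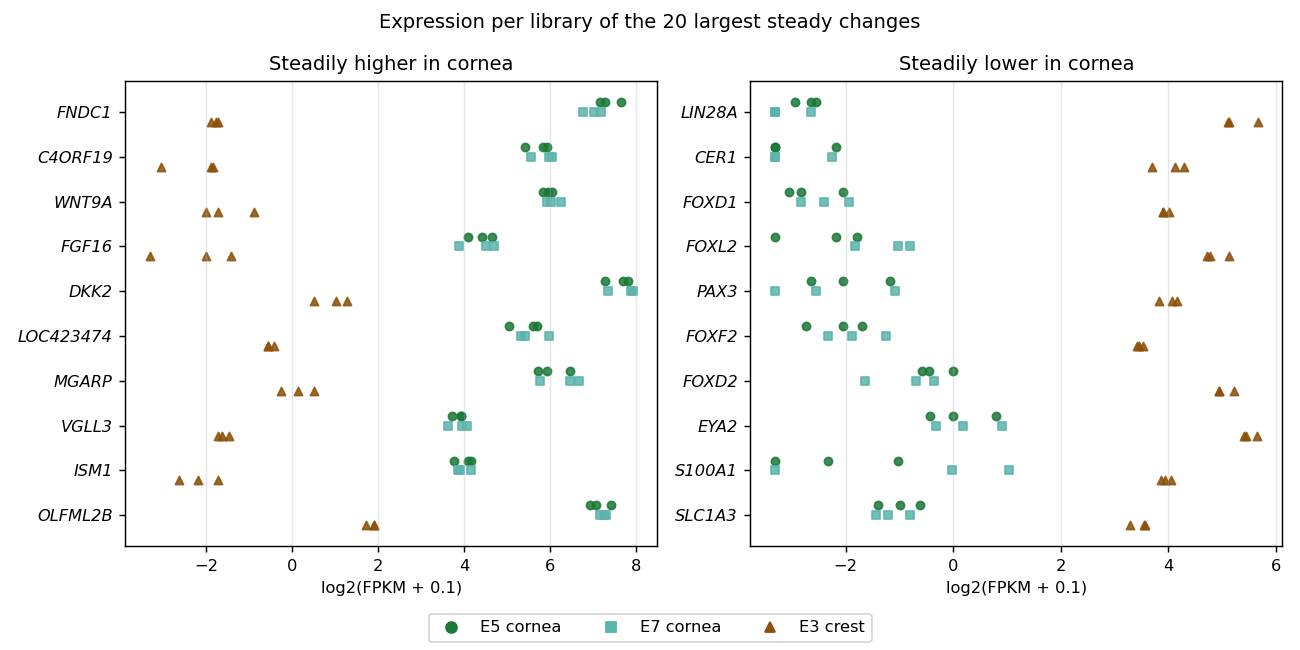
Level of the 10 largest steady rises and the 10 largest steady falls in every library, as log2(FPKM + 0.1); circles are libraries labelled E5, squares those labelled E7 and triangles E3 crest. For each gene the E5 and E7 symbols stand clear of the E3 symbols, as for WNT9A with 57.5 to 76.1 FPKM in the cornea and 0.15 to 0.44 FPKM at E3.

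The most uniform rises, by the smallest corneal range among genes with a log2 fold change of at least 2, were LMO7, SLC41A2, TMEM45B, HTATIP2 and TRAF4. LMO7, which encodes an actin-associated protein of adherens junctions (418815), had 25.5, 27.2 and 29.1 FPKM in the cornea, against 5.82, 8.7 and 6.28 FPKM at E3 (log2 fold change 2.13 ± 0.13, adjusted p = 5.49e-06). Its corneal range of 0.16 was the smallest of these. SLC41A2, which encodes a magnesium transporter (427913), had 64.7, 76.9 and 80.1 FPKM in the cornea, against 2.93, 2.99 and 2.34 FPKM at E3 (log2 fold change 4.91 ± 0.12, adjusted p = 3.04e-08). The membrane protein gene TMEM45B had 22.7 to 28.2 FPKM in the cornea, against 0.91 to 1.48 FPKM at E3 (log2 fold change 4.78 ± 0.10, adjusted p = 2.48e-08). HTATIP2, which encodes an oxidoreductase-like protein, and TRAF4, which encodes an adaptor of TNF receptor family signalling, rose by 2.55 ± 0.14 and 2.59 ± 0.12. The corneal libraries of TMEM45B, HTATIP2 and TRAF4 spanned 0.26, 0.26 and 0.30 on the log2 scale.

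At the same level, LIN28A had the largest steady fall. LIN28A, which encodes an RNA-binding protein that blocks maturation of let-7 microRNAs and marks early embryonic cells (428206), had 0, 0.04 and 0.07 FPKM in the cornea, against 34.5, 34.7 and 50.8 FPKM at E3 (log2 fold change -9.65 ± 0.36, adjusted p = 3.5e-07). It was not listed in some corneal libraries, which were taken as 0, and was above 0.07 FPKM in none. Its relative LIN28B fell as well, but the corneal libraries differed, with 0.23, 3.66 and 8.47 FPKM in the cornea, against 77.5, 82.1 and 87.7 FPKM at E3 (log2 fold change -4.22 ± 1.01, adjusted p = 0.00876, range 4.25).

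Of the 10 largest steady falls, 4 were forkhead transcription factor genes. FOXD1 (396109) had 0.02, 0.07 and 0.16 FPKM in the cornea, against 14.8, 14.8 and 16.1 FPKM at E3 (log2 fold change -7.51 ± 0.39, adjusted p = 2.1e-06). FOXL2 (503512), a factor of periocular mesenchyme, had 0, 0.18 and 0.47 FPKM in the cornea, against 27.2, 26.3 and 34.6 FPKM at E3 (log2 fold change -6.97 ± 0.59, adjusted p = 3.26e-05). FOXF2 (100857760) and FOXD2 (395795) fell, with log2 fold changes of -5.96 ± 0.37 and -5.60 ± 0.26. All 4 were below 1 FPKM in every corneal library and above 10 FPKM in every E3 library.

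PAX3 and EYA2 were also among the 10 largest steady falls. PAX3, a paired-box factor of the neural plate border and crest (374127), had 0, 0.10 and 0.37 FPKM in the cornea, against 17.8, 14.1 and 16.6 FPKM at E3 (log2 fold change -6.41 ± 0.60, adjusted p = 5.96e-05). EYA2, which encodes a phosphatase that acts as a cofactor of homeobox factors (395745), had 0.64, 0.96 and 1.78 FPKM in the cornea, against 42.5, 49.7 and 43.4 FPKM at E3 (log2 fold change -5.21 ± 0.29, adjusted p = 2.86e-06). EYA2 stayed measurable in every corneal library, whereas PAX3 was not listed in 1 of them.

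The remaining 3 of these falls were CER1, S100A1 and SLC1A3. CER1, which encodes the secreted antagonist Cerberus (395623), had 3 counts over all corneal libraries and 874 counts over the E3 libraries, a ratio of E3 to cornea of 429 per count sequenced after TMM scaling (exact 95% binomial interval 146 to 2080, counting error only). The glutamate transporter gene SLC1A3 had 0.27 to 0.55 FPKM in the cornea, against 9.7 to 11.7 FPKM at E3 (log2 fold change -4.66 ± 0.24, adjusted p = 1.93e-06). S100A1, which encodes a calcium-binding protein, had 0, 0.24 and 1.96 FPKM in the cornea, against 14.3, 16.5 and 15.1 FPKM at E3 (log2 fold change -4.79 ± 0.94, adjusted p = 0.00312). Its corneal libraries differed more on the FPKM scale than its range of 0.86 conveys, since most lay near 0.

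The most uniform falls, among genes that kept at least 1 FPKM in the cornea, included LIX1, PPP1R17, SESN1 and LDB2. LIX1 had 1.6 to 2.3 FPKM in the cornea, against 22.1 to 28.9 FPKM at E3 (log2 fold change -3.60 ± 0.17, adjusted p = 1.6e-06), with the smallest range of these, 0.37. PPP1R17, which encodes a phosphatase inhibitor, SESN1, which encodes a stress-responsive sestrin, and LDB2, which encodes a cofactor of LIM domain factors, fell, with log2 fold changes of -2.50 ± 0.18, -2.73 ± 0.17 and -2.46 ± 0.17. Close to the limit of 1, HTRA1 and EYA2 were just inside it, with ranges of 0.98 and 0.98, and NR2F2 and HEYL just outside, with 1.01 and 1.03.

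Transcription factors of the crest and of the periocular mesenchyme split in both directions. Of 33 crest genes tested, 7 were called higher, all of them steady, and 16 lower, of which 7 were steady. The median log2 fold change of the list was -1.02, against 0.04 over all genes tested, and 69.7% of its genes were called, against 43.4% of all genes. Its summed CPM was higher in the cornea all the same, at 3666 to 4797, against 2372 to 2447 at E3. CDH11, 1 of the rises, held 1931 to 2433 CPM of this sum in the cornea, against 653 to 787 CPM at E3. Of 24 periocular factors tested, 3 were called higher, 2 of them steady, and 14 lower, of which 11 were steady (median -1.74, 70.8% called). This list also summed higher in the cornea, at 1898 to 2551 CPM, against 1255 to 1386 CPM at E3. The counts of every list below are to be read beside these 43.4% of all genes, 22.2% higher and 21.2% lower.

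Members of the AP-2 family differed from each other. TFAP2B had 214, 234 and 280.5 FPKM in the cornea, against 27.5, 25.5 and 30.1 FPKM at E3 (log2 fold change 3.38 ± 0.15, adjusted p = 1.22e-06). TFAP2E had 90.3, 105 and 115 FPKM in the cornea, against 12.5, 7.1 and 10.3 FPKM at E3 (log2 fold change 3.56 ± 0.20, adjusted p = 2.94e-06). Both were steadily higher in the cornea, by about the same amount on the log2 scale. TFAP2A had 5.07, 12.8 and 28.2 FPKM in the cornea, against 21.3, 18.6 and 18.5 FPKM at E3, so that the groups overlapped, and its difference did not pass the test (log2 fold change -0.26, 95% interval -1.42 to 0.91, adjusted p = 0.717). It had 5.07 to 7.82 FPKM in E5 libraries 1 and 2 and E7 library 3, below all E3 libraries. In E5 library 3 and E7 libraries 1 and 2 it had 17.8 to 28.2 FPKM.

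The factors that define migratory crest fell. SOX10, which migratory crest and glia express, had 0.01, 0.28 and 1 FPKM in the cornea, against 17.2, 14.5 and 16.7 FPKM at E3 (log2 fold change -5.49 ± 0.90, adjusted p = 0.00129). FOXD3 had 0, 0.07 and 0.28 FPKM in the cornea, against 8.26, 8.76 and 10.8 FPKM at E3 (log2 fold change -6.63 ± 0.70, adjusted p = 0.000115). The groups did not overlap for either gene, and FOXD3 was not listed in 2 corneal libraries. SOX5 and SOX9, which also serve in cartilage, fell, with log2 fold changes of -5.73 ± 0.86 and -2.88 ± 0.36.

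Other crest genes were not called lower. SNAI2, a repressor of epithelial genes, had 23.5 to 34.7 FPKM in the cornea, against 20.8 to 23.2 FPKM at E3 (log2 fold change 0.51 ± 0.14, adjusted p = 0.0182), but its call was lost without E3 library 2 or 3, with an adjusted p of up to 0.0704. TWIST1, a mesenchymal factor, had 40.4 to 92.5 FPKM in the cornea, against 61.7 to 82.8 FPKM at E3 and did not pass the test (log2 fold change 0.03, 95% interval -0.59 to 0.66, adjusted p = 0.935). Its corneal values split by the sets described above, with 82.4 to 92.5 FPKM in E5 libraries 1 and 2 and E7 library 3. In E5 library 3 and E7 libraries 1 and 2 it had 40.4 to 56.8 FPKM, below all E3 libraries. The adhesion gene CDH11 rose steadily, with 325 to 417 FPKM in the cornea, against 127 to 154 FPKM at E3 (log2 fold change 1.53 ± 0.10, adjusted p = 8.99e-06).

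Of the periocular factors, TBX2 and LMX1B were among those that rose. TBX2, a T-box repressor, had 73.3, 79.4 and 87.4 FPKM in the cornea, against 6.15, 4.8 and 4.86 FPKM at E3 (log2 fold change 4.08 ± 0.13, adjusted p = 1.68e-07). Its corneal range was 0.35, so that no corneal library strayed far from the rest. LMX1B had 86.3 to 198 FPKM in the cornea, against 39.1 to 46 FPKM at E3 (log2 fold change 1.83 ± 0.26, adjusted p = 0.000629), just over the limit for steady genes with a range of 1.08. SIX2, also on this list, fell, with a log2 fold change of -6.29 ± 0.81, with at most 1.21 FPKM in the cornea, against at least 32 FPKM at E3.

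Early embryonic RNA-binding genes followed LIN28A in part. Of 14 tested, 2 were called higher and 7 lower (64.3% called, median -1.07), and 1 and 3 of these were steady. The count called higher was 1 when any E3 library was left out, with only E5 against E3 and with limma on log2(FPKM + 1). TRIM71, a let-7 target in other species, had 1.03 to 3.36 FPKM in the cornea, against 13.7 to 15.1 FPKM at E3 (log2 fold change -2.67 ± 0.30, adjusted p = 0.000169). MSI2, a Musashi gene, rose instead, with 67.1 to 76.3 FPKM in the cornea, against 28.6 to 36 FPKM at E3 (log2 fold change 1.23 ± 0.09, adjusted p = 1.04e-05) and a corneal range of 0.24. No HOX gene passed the filter on low counts, and the 15 with an entry summed to at most 0.304 CPM in a corneal library and at most 0.551 CPM in an E3 library.

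Genes of the WNT pathway rose more often than they fell. Of 41 tested, 18 were called higher and 8 lower (63.4% called, median 0.47), and 9 and 5 of these were steady. The summed CPM of the list was 4076 to 5233 in the cornea, against 1919 to 2008 at E3. Beside WNT9A and DKK2, the ligand gene WNT6 had 30.3, 52.5 and 72.8 FPKM in the cornea, against 0.14, 0.03 and 0.23 FPKM at E3 (log2 fold change 8.83 ± 0.57, adjusted p = 7.01e-06). The receptor gene FZD4 and the secreted antagonist gene SFRP1 fell, with log2 fold changes of -2.65 ± 0.55 and -1.10 ± 0.19, with no overlap between the groups.

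In the FGF pathway the ligand genes named rose and the receptor genes named fell. Of 26 genes tested, 11 were called higher and 6 lower (65.4% called, median 0.35), and 4 and 2 of these were steady. The summed CPM of the list was lower in the cornea all the same, at 1065 to 1417, against 1451 to 1607 at E3. FGF9, a close relative of FGF16, had 1747 counts over the corneal libraries and 3 counts over the E3 libraries, a ratio of 395 per count sequenced after TMM scaling (exact 95% binomial interval 135 to 1920). Its corneal libraries ran from 4.11 to 35.4 FPKM, unlike the steady FGF16. The receptor gene FGFR2 had 9.29 to 26.7 FPKM in the cornea, against 118 to 148 FPKM at E3 (log2 fold change -2.79 ± 0.33, adjusted p = 0.00021), and FGFR3 had 0.16 to 2.97 FPKM in the cornea, against 24.1 to 32.2 FPKM at E3 (log2 fold change -4.09 ± 0.86, adjusted p = 0.00439). SPRY4, which encodes a feedback inhibitor of FGF signalling, rose by 3.46 ± 0.65.

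The TGF-beta and BMP list held 35 tested genes, of which 8 were called higher and 11 lower (54.3% called, against 43.4% of all genes, median 0.08). All 8 rises and 8 of the falls were steady. TGFB2, a ligand of the TGF-beta group, had 50.6, 64.4 and 77.1 FPKM in the cornea, against 1.95, 2.05 and 2.35 FPKM at E3 (log2 fold change 5.06 ± 0.15, adjusted p = 1.68e-07). SMAD3, which transmits TGF-beta signals, and BMPR2, a type II BMP receptor, rose less, by 1.07 ± 0.11 and 1.12 ± 0.17. The ligand gene BMP5 and the BMP antagonist gene CHRDL1 fell beside CER1, with 0.12 to 0.37 FPKM in the cornea, against 7.18 to 9.54 FPKM at E3 for BMP5 (log2 fold change -5.00 ± 0.45, adjusted p = 4.57e-05) and a log2 fold change of -4.62 ± 0.60 for CHRDL1.

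Of 19 retinoic acid genes tested, 7 were called higher and 6 lower (68.4% called, median 0.34), 4 and 0 of them steady; without E3 library 1 or 3, only 4 were called higher. ALDH1A2, which encodes an enzyme that makes retinoic acid, had 209.8, 382 and 553 FPKM in the cornea, against 29.5, 28.9 and 22.3 FPKM at E3 (log2 fold change 3.95 ± 0.37, adjusted p = 5.85e-05). DHRS3, which encodes an enzyme that turns retinal back to retinol, had 51.1 to 83.9 FPKM in the cornea, against 7.59 to 9.63 FPKM at E3 (log2 fold change 2.83 ± 0.15, adjusted p = 2.7e-06). CYP26B1, which encodes an enzyme that degrades retinoic acid, rose as well, with 3.57 to 36.2 FPKM in the cornea, against 1.83 to 2.1 FPKM at E3 (log2 fold change 3.41 ± 0.90, adjusted p = 0.0136), but its call was lost when any E3 library was left out, with adjusted p-values of up to 0.0557. The binding protein gene CRABP1 had 4.76 to 37.3 FPKM in the cornea, against 543 to 664 FPKM at E3 (log2 fold change -4.59 ± 0.61, adjusted p = 0.000388). The nuclear receptor genes NR2F1 and NR2F2, which retinoic acid induces in other species, fell, with log2 fold changes of -2.83 ± 0.22 and -2.46 ± 0.20.

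Guidance genes were called in both directions, 13 higher and 11 lower of 41 tested (58.5% called, median 0.41), of which 6 and 5 were steady. SLIT2, which encodes a repellent ligand, had 19.1, 20.7 and 24.4 FPKM in the cornea, against 4.33, 5.5 and 4.16 FPKM at E3 (log2 fold change 2.33 ± 0.12, adjusted p = 2.53e-06). The receptor genes EPHA3, EPHA4 and UNC5C fell, with log2 fold changes of -5.23 ± 0.64, -6.83 ± 0.79 and -5.17 ± 0.33. UNC5C was the steady one of these, at 0.07 to 0.26 FPKM in the cornea, against 6.57 to 8.3 FPKM at E3. Not all Eph receptor genes fell. EPHA5 rose, with 5.93 to 16.1 FPKM in the cornea, against 2.61 to 2.75 FPKM at E3 (log2 fold change 2.26 ± 0.50, adjusted p = 0.00602).

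Of the Notch genes called more fell than rose, and all insulin-like growth factor genes called rose. Of 18 Notch pathway genes tested, 2 were called higher and 8 lower (55.6% called, median -1.19), and 5 were called lower without E3 library 3. The effector genes HEY1 and HEYL fell, with log2 fold changes of -3.29 ± 0.76 and -2.21 ± 0.27, while the receptor gene NOTCH2 rose by 0.87 ± 0.18. Of 14 genes of insulin-like growth factors and their binding proteins, 8 were called higher and 0 lower (57.1% called, median 0.50), and 5 of the rises were steady. HTRA1, which encodes a secreted serine protease, had 179, 247 and 329.8 FPKM in the cornea, against 11.9, 8.99 and 9.85 FPKM at E3 (log2 fold change 4.80 ± 0.35, adjusted p = 1.35e-05). The binding protein genes IGFBP2 and IGFBP4 rose by 3.96 ± 0.41 and 0.90 ± 0.10.

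Stromal matrix genes rose unevenly. Of 25 genes of stromal proteoglycans and keratan sulfate synthesis, 16 were called higher and 0 lower (64.0% called, median 2.44), but only 3 were steady. Of 22 collagen genes, 15 were called higher and 2 lower (77.3% called, median 3.58), with 1 of each steady. The median corneal range was 1.64 for the proteoglycan list and 2.33 for the collagens, against 0.595 over all genes tested. Summed CPM was 5325 to 17010 for the proteoglycan list in the cornea, against 1642 to 1721 at E3, and 13790 to 38490 for the collagens, against 2737 to 2939. The high ends were E5 libraries 1 and 2 and E7 library 3.

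KERA had 601, 1250 and 1952 FPKM in the cornea, against 28.5, 22.7 and 19.3 FPKM at E3 (log2 fold change 6.09 ± 0.63, adjusted p = 0.000105). OGN, which encodes the small proteoglycan osteoglycin, had 234, 565 and 1055 FPKM in the cornea, against 3.7, 5.02 and 3.14 FPKM at E3 (log2 fold change 7.48 ± 0.89, adjusted p = 0.000227). For both genes even the lowest corneal library stood far above the highest E3 library. EPYC and DCN, of the same family of small leucine-rich proteoglycans, rose by 6.23 ± 0.87 and 3.69 ± 0.61. LUM, which encodes lumican, had 493 to 1574 FPKM in the cornea, against 336 to 374 FPKM at E3 (log2 fold change 1.70 ± 0.49, adjusted p = 0.0207), but the call was lost when any E3 library was left out, with adjusted p-values of up to 0.0732.

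Among collagens, the subunit genes of collagen VI were near 1 FPKM at E3. COL6A2 had 41.3, 426 and 895 FPKM in the cornea, against 0.61, 0.67 and 0.56 FPKM at E3 (log2 fold change 9.72 ± 1.78, adjusted p = 0.00223), and COL6A1 had 17.7, 139 and 290.4 FPKM in the cornea, against 1.74, 1.91 and 1.43 FPKM at E3 (log2 fold change 6.66 ± 1.28, adjusted p = 0.00288). Neither was steady, since their ranges were 4.55 and 4.13. COL8A2 rose by 3.48 ± 0.26 with a range of 1.07, and COL14A1, a fibril-associated collagen, by 5.48 ± 1.29. COL9A3 and COL26A1 were the 2 that fell, with log2 fold changes of -2.23 ± 0.20 and -1.67 ± 0.25.

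The enzymes that modify collagen were called more often than any other of the 35 lists with a tested gene except the erythroid list. Of 24 tested, 21 were called higher and 2 lower (95.8% called, median 1.69), and 9 of the rises were steady. PLOD2, which encodes a lysyl hydroxylase, had 149.5, 209 and 232 FPKM in the cornea, against 28.5, 31.1 and 28.7 FPKM at E3 (log2 fold change 2.90 ± 0.14, adjusted p = 1.6e-06). P4HA3, which encodes a prolyl hydroxylase subunit, rose by 4.66 ± 0.51, and COLGALT1, which encodes a collagen galactosyltransferase, by 5.36 ± 0.86. P3H2, which encodes a prolyl 3-hydroxylase, and ADAMTS14, which encodes a procollagen peptidase, fell, with log2 fold changes of -5.43 ± 0.96 and -1.03 ± 0.23.

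Most genes of the secretory pathway rose. Of 38 tested, 32 were called higher and 2 lower (89.5% called, median 0.67), and 25 of the rises were steady. The median corneal range of the list was 0.53, near the 0.595 over all genes tested. The list summed to 14520 to 15240 CPM in E5 libraries 1 and 2 and E7 library 3. In E5 library 3 and E7 libraries 1 and 2 it summed to 11610 to 12870 CPM, against 8462 to 8742 CPM at E3. The 3 largest rises were CREB3L1, a transcription factor of secretory cells, SEC24D, which encodes a coat protein of export vesicles, and KDELR3, which encodes a retrieval receptor, at 3.21 ± 0.71, 2.65 ± 0.47 and 2.52 ± 0.40. None of these 3 was steady, with ranges of 2.55, 1.73 and 1.45.

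Other matrix genes rose in part. Of 27 matricellular genes, 18 were called higher and 3 lower (77.8% called, median 2.60), with 8 and 3 steady. FBLN5, which encodes an elastic fibre protein, had 214, 315 and 376 FPKM in the cornea, against 21, 21 and 17.3 FPKM at E3 (log2 fold change 4.10 ± 0.20, adjusted p = 1.67e-06). SPON2 rose by 4.98 ± 0.80, while its relative SPON1 and the elastic fibre gene EMILIN2 fell steadily, with log2 fold changes of -1.87 ± 0.18 and -1.31 ± 0.14. Of 22 genes of hyaluronan and matrix remodelling, 10 were called higher and 3 lower (59.1% called, median 0.70), with 6 and 2 steady. HAS2, which encodes a hyaluronan synthase, had 139, 146 and 182 FPKM in the cornea, against 20.6, 20.2 and 20.5 FPKM at E3 (log2 fold change 3.05 ± 0.13, adjusted p = 7.07e-07). The protease genes MMP27 and ADAMTS5 rose by 8.73 ± 0.53 and 4.75 ± 0.43.

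Basement membrane genes were called in both directions, 10 higher and 7 lower of 28 tested (60.7% called, median -0.10). The count called lower was 4 without E3 library 1 or 2. The laminin gene LAMA5 had 9.94 to 16.5 FPKM in the cornea, against 2.21 to 2.99 FPKM at E3 (log2 fold change 2.44 ± 0.16, adjusted p = 7.16e-06), and SPARC, which encodes a collagen-binding glycoprotein, had 759.6 to 1642 FPKM in the cornea, against 200.4 to 220.3 FPKM at E3 (log2 fold change 2.67 ± 0.33, adjusted p = 0.000283). LAMA4 and NID1, which vascular basement membranes also use, fell, with log2 fold changes of -3.92 ± 0.72 and -2.12 ± 0.52. Of 29 integrins and other matrix receptors, 13 were called higher and 6 lower (65.5% called, median 0.65), with 9 and 5 steady. The collagen receptor gene DDR2 and the integrin gene ITGB8 rose by 1.88 ± 0.17 and 3.62 ± 0.30, and ITGA9 and SDC3 fell, with log2 fold changes of -1.75 ± 0.11 and -2.17 ± 0.26.

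**Figure D3:**
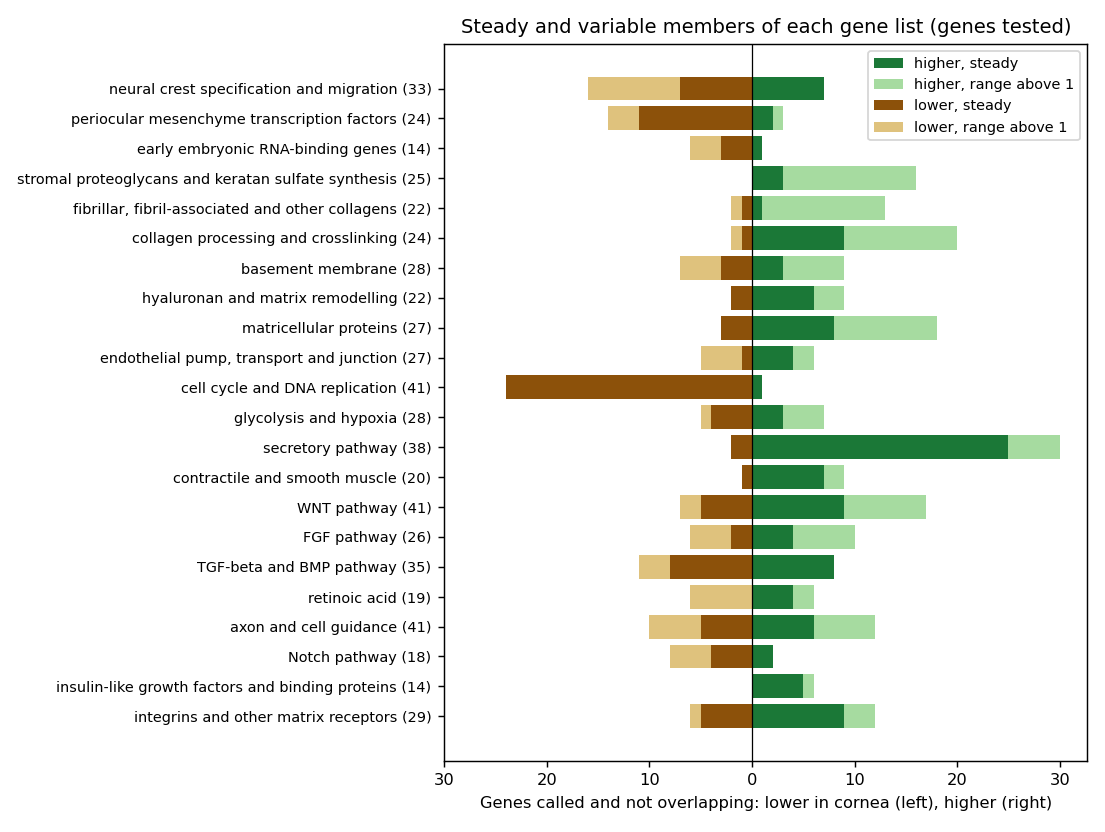
Genes of each list called, with no overlap of libraries, higher (to the right) or lower (to the left) in cornea than in E3 crest, the steady ones in a darker shade; the x axis counts genes and brackets give the number tested. Collagen processing, with 20 higher and 2 lower, and the secretory pathway, with 30 and 2, lean to the right, and the cell cycle, with 1 and 24, to the left.

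Of 27 endothelial pump, transport and junction genes tested, 8 were called higher and 5 lower (48.1% called, against 43.4% of all genes, median 0.06), and 5 were called higher without E3 library 2 or 3. AQP1 had 524, 813 and 1085 FPKM in the cornea, against 0.48, 1.2 and 1.03 FPKM at E3 (log2 fold change 9.95 ± 0.60, adjusted p = 4.89e-06), with a corneal range of 1.15. CDH2, which encodes N-cadherin, had 84.6, 207 and 395 FPKM in the cornea, against 32.6, 39.9 and 35.5 FPKM at E3 (log2 fold change 2.73 ± 0.57, adjusted p = 0.00418). CDH2 was lowest in E5 libraries 1 and 2 and E7 library 3, the ones highest for KERA. The anion exchanger gene SLC4A2 rose steadily, by 1.62 ± 0.16. CDH5, CLDN5 and CA2 fell, with log2 fold changes of -4.53 ± 0.99, -2.97 ± 0.27 and -5.14 ± 0.95; the first 2 also mark vascular endothelium, of whose list 18 of 24 genes were called lower, and CA2 is also a gene of red cells.

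Genes of the cell cycle and DNA replication fell by little. Of 41 tested, 24 were called lower, all of them steady, and 1 higher (61.0% called, median -0.37). The list summed to 6351 to 6619 CPM in E5 libraries 1 and 2 and E7 library 3. In E5 library 3 and E7 libraries 1 and 2 it summed to 5520 to 5968 CPM, against 7597 to 7896 CPM at E3. The largest falls were GMNN, which encodes the replication licensing inhibitor geminin, ORC1, of the origin recognition complex, and CCND3, which encodes cyclin D3. GMNN had 19.6, 22.3 and 25.8 FPKM in the cornea, against 58, 61.4 and 58 FPKM at E3 (log2 fold change -1.24 ± 0.08, adjusted p = 7.32e-06). CCND3 and ORC1 fell, with log2 fold changes of -1.18 ± 0.14 and -1.15 ± 0.10. The 1 rise, CDK6, at 0.36 ± 0.12 (adjusted p = 0.0356), lost its call with library size alone and without E5 library 1, E3 library 1 or E3 library 3, with adjusted p-values of up to 0.182.

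Of 28 genes of glycolysis and hypoxia, 8 were called higher and 5 lower (46.4% called, near the 43.4% of all genes, median -0.07). The lactate dehydrogenase gene LDHA had 134 to 428 FPKM in the cornea, against 36 to 56.2 FPKM at E3 (log2 fold change 2.78 ± 0.48, adjusted p = 0.00175), and the kinase gene PDK1 fell, with a log2 fold change of -0.60 ± 0.16. This list depended on the scaling, with 10 called lower with library size alone, and on the E3 libraries, with 5 called higher without E3 library 1 or 2. Of 20 contractile genes, 9 were called higher and 1 lower (50.0% called, median 0.52), with 7 and 1 steady, and 5 were called higher without E3 library 2. TAGLN, which encodes the actin-binding protein transgelin, rose by 4.64 ± 0.58, and the calponin gene CNN2 steadily by 1.53 ± 0.10.

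**Figure D4:**
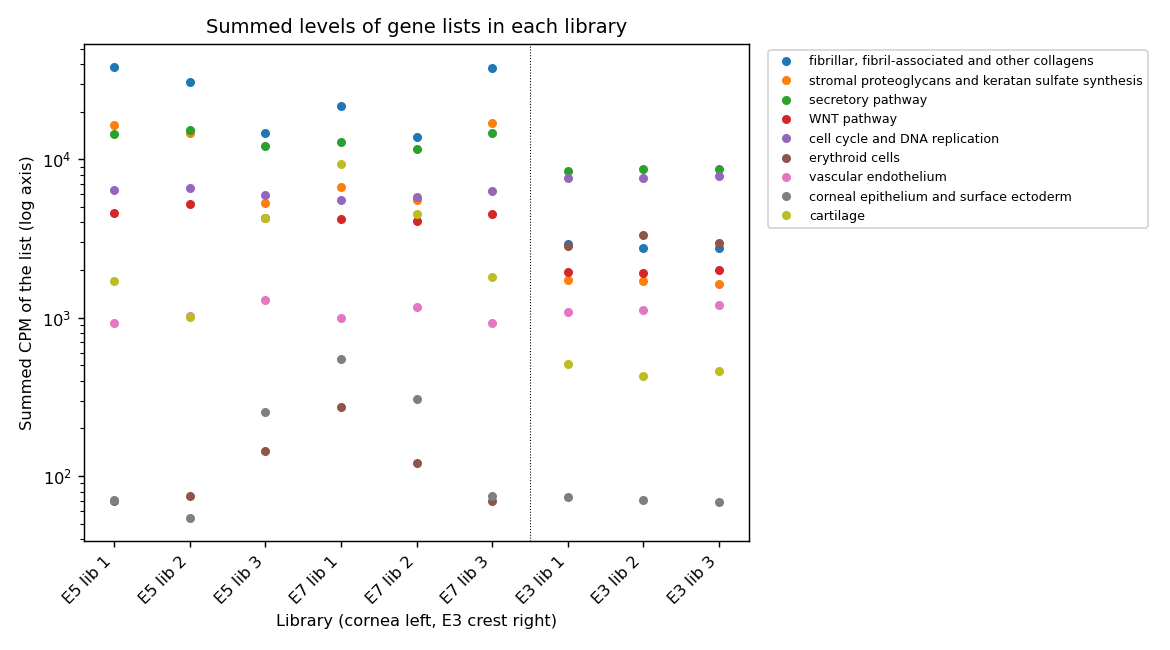
Summed CPM of selected gene lists in each library, on a log scale, with the 6 corneal libraries to the left of the 3 E3 libraries. Collagens run from 13790 to 38490 CPM in the cornea, against 2737 to 2939 CPM in E3 crest, and erythroid genes from 69.5 to 273 CPM, against 2824 to 3305 CPM.

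At the other end stood the genes with the widest corneal range that still did not overlap with E3. NPNT, which encodes the integrin ligand nephronectin, had 558, 433 and 538 FPKM in E5 libraries 1 and 2 and E7 library 3, and 8.47, 14.5 and 10.8 FPKM in E5 library 3 and E7 libraries 1 and 2, against 6.96, 8.62 and 6.84 FPKM at E3. Its log2 fold change of 5.33 ± 1.78 (adjusted p = 0.0372) thus averaged values that differed widely, and its call was lost in 10 of 20 alternative settings, with adjusted p-values of up to 0.116. VIT, which encodes the matrix protein vitrin, showed the reverse order, with 14.4, 42.2 and 26.4 FPKM in E5 library 3 and E7 libraries 1 and 2, and 0.64, 0.40 and 0.22 FPKM in E5 libraries 1 and 2 and E7 library 3. It was not listed in any E3 library, so that 4590 counts stood against 0. With 3 counts over the E3 libraries as the floor, VIT was at least 926-fold higher in the cornea per count sequenced. After TMM scaling it was at least 1040-fold higher. Its call (adjusted p = 0.0335) was lost in 7 of 19 settings.

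HSD17B2, which encodes a steroid dehydrogenase, C1QTNF4 and FAM129A were the other 3 rises of this kind. They had 0.26 to 34.4, 1.09 to 91.7 and 2.43 to 103 FPKM in the cornea, against at most 0.03, 0.77 and 2.05 FPKM at E3. All 3 lost their call when any E3 library was left out, with adjusted p-values of up to 0.0887, 0.0873 and 0.0928. Of the falls with the widest range, VEGFD, which encodes a ligand of the VEGF family, had 0.27, 6.11 and 13.8 FPKM in the cornea, against 153, 157 and 148 FPKM at E3 (log2 fold change -4.40 ± 0.99, adjusted p = 0.00633). The other 4 were LIN28B, given above, and 3 globin genes.

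**Figure D5:**
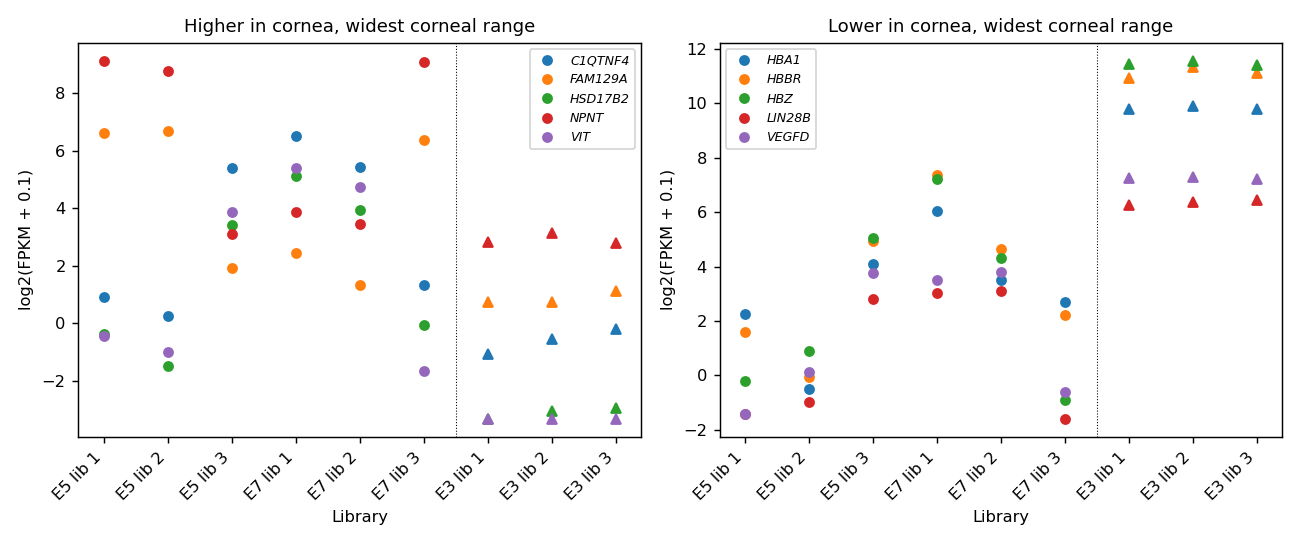
FPKM of the 5 rises and 5 falls with the widest corneal range in each library, as log2(FPKM + 0.1), corneal libraries to the left and E3 crest to the right. NPNT is at 433 FPKM or more in 3 corneal libraries and at 14.5 FPKM or less in the other 3, and HBZ runs from 0.44 to 148 FPKM in the cornea, against at least 2722 FPKM at E3.

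Several marker lists of other cell types moved with the comparison. All 8 erythroid genes tested were called lower (median -5.39), and 2 were steady. The globin genes HBZ, HBBR and HBA1 had 0.44 to 148 FPKM in the cornea, against 2722 to 3037 FPKM at E3, 0.86 to 166 FPKM in the cornea, against 1955 to 2597 FPKM at E3 and 0.60 to 65.5 FPKM in the cornea, against 878 to 961 FPKM at E3, in that order. Of 24 vascular endothelial genes, 2 were called higher and 18 lower (83.3% called, median -3.01), 1 and 4 of them steady. The summed CPM of the list was 925 to 1303 in the cornea, against an overlapping 1085 to 1210 at E3. FLT4, 1 of the 2 rises, held 432 to 767 CPM of this sum in the cornea, against 62.6 to 80.6 CPM at E3. The overlap of the sums therefore does not describe the rest of the list. The receptor gene KDR fell, with a log2 fold change of -4.75 ± 0.83, while FLT4 and ERG, which the list also holds, rose, with 49.3 to 94.6 FPKM in the cornea, against 8.31 to 10.9 FPKM at E3 for FLT4 (log2 fold change 2.97 ± 0.24, adjusted p = 2.77e-05) and a log2 fold change of 1.42 ± 0.33 for ERG. The part of red cells and vessels in the other falls was not tested.

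Genes of corneal epithelium and surface ectoderm were high in part of the corneal libraries. Of 16 tested, 7 were called higher and 0 lower (43.8% called, near the 43.4% of all genes, median 2.67). Only 3 were called when any E3 library was left out. Their summed CPM was 54.3 to 74.5 in E5 libraries 1 and 2 and E7 library 3, and 253 to 548 in E5 library 3 and E7 libraries 1 and 2, against 69.1 to 74.2 at E3. The epithelial protease gene ST14 rose steadily, by 4.53 ± 0.33. Cartilage genes, 3 called higher and 4 lower of 13 (53.8% called), summed to 1018 to 9295 CPM in the cornea, against 428 to 507 CPM at E3. COL2A1, the main cartilage collagen and also a collagen of the embryonic chick cornea, was a large part of this sum, with 178 to 1888 FPKM in the cornea, against 75.8 to 90.8 FPKM at E3 (log2 fold change 3.27 ± 0.75, adjusted p = 0.00723). SOX9, which drives cartilage genes, fell. Among the corneal libraries it was highest in E7 library 1, at 2.54 FPKM, where COL2A1 was highest as well. The part of cartilage in these changes was not tested.

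Schwann and glial genes were called higher in 2 and lower in 5 of 12 (58.3% called, against 43.4% of all genes). They summed to 105 to 119 CPM in E5 libraries 1 and 2 and E7 library 3. In E5 library 3 and E7 libraries 1 and 2 they summed to 378 to 407 CPM, against 209 to 245 CPM at E3. Neuronal genes were called lower in 6 of 13 and higher in 0 (46.2% called), with 49.4 to 67.7 CPM in the cornea, against 92.3 to 98.6 CPM at E3. Leukocyte genes were called higher in 1 and lower in 5 of 10 (60.0% called). They summed to 25.4 to 34.7 CPM in E5 libraries 1 and 2 and E7 library 3. In E5 library 3 and E7 libraries 1 and 2 they summed to 75.4 to 116 CPM, against 56.5 to 62.4 CPM at E3. The 1 leukocyte rise was CD74 (log2 fold change 2.19 ± 0.70, adjusted p = 0.0323), whose call was lost in 7 of 20 settings, and the count of falls was 1 to 3 when an E3 library, E5 library 1, E7 library 2 or E7 library 3 was left out.

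Lens, neural retina, pigment cell and skeletal muscle genes were called higher in 1 of 5, 1 of 8, 2 of 12 and 1 of 8, and lower in 0, 2, 1 and 3. Their summed CPM in the cornea was 13.3 to 38.1, 56.7 to 325, 94.4 to 158 and 272 to 418, against 15.5 to 18.2, 96.7 to 106, 91.0 to 94.8 and 389 to 396 CPM at E3. Defining genes at fewer than 3 counts over the corneal libraries included, for lens, BFSP2, CRYAB, CRYBA4 and FOXE3, for neural retina, POU4F3, PTF1A and SIX6, for skeletal muscle, CHRND, MYL1 and MYOG, and for neurons, ISL1, NEUROD1, NEUROD4 and STMN2. Over the E3 libraries they included, for lens, CRYAA, CRYBA2 and CRYBA4, for neural retina, ATOH7, PAX6, PTF1A and SIX6, for pigment cells, TTR and TYRP1, and for muscle, CHRND and MYOG. Most members were counted: in the cornea 5 of 18 lens and 3 of 16 neural retina genes with an entry were under 3 counts. The retina rise was PAX6, at 0 to 6 FPKM in the cornea, against 0 FPKM at E3. The 2 retina falls were HES5 and OTX2. The lens rise was CRYBA1, at 0.55 to 1.8 FPKM in the cornea, against 0.14 to 0.58 FPKM at E3. The neural retina list summed to 286 to 325 CPM in E5 library 3 and E7 libraries 1 and 2. In E5 libraries 1 and 2 and E7 library 3 it summed to 56.7 to 67.4 CPM. The lens list summed highest in E5 library 1.

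Ribosomal protein genes were called in 11.5% of cases, 6 higher and 1 lower of 61 (median 0.06), and their sum was 39650 to 45570 CPM in the cornea, against 41020 to 42230 CPM at E3. The 6 rises depended on the scaling and the libraries, with 1 under library size alone, 1 or 2 without an E3 library and 3 without E5 library 1, E7 library 1 or E7 library 2. Of 24 immediate early and heat shock genes, 10 were called higher and 5 lower (62.5% called, median 0.67). The immediate early genes FOSL2, EGR1 and FOS, which handling of tissue can induce, rose by 4.03 ± 0.50, 3.18 ± 0.34 and 2.09 ± 0.39. The heat shock genes HSPB9, HSPH1 and HSP90AA1 fell, with log2 fold changes of -1.88 ± 0.17, -1.48 ± 0.17 and -0.91 ± 0.12, and the list summed to 3555 to 4521 CPM in the cornea, against 5286 to 6202 CPM at E3. Their part in the other changes was not tested.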

How the data were processed

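RNA of chick periocular crest (E3) and cornea (E5, E7) was sequenced in 9 libraries, grouped by their titles. Per the file headers, the authors deposited, for each entry above 0, its expected count (an estimate, often fractional) and its FPKM, which is scaled to length and depth. An entry not listed in a library was taken as 0 there. Bowtie2, HISAT and the build galGal5 are named per the submitters' processing notes; for the counting program and strand setting, nothing is given in the sources used here. Symbols came from a RefSeq table of assembly GRCg7b, so no coordinates are given. Of 46855 entries, 23918 matched a gene, and 22937, with 21.5% to 23.6% of the counts, did not and stayed out of the tests. Expected counts were summed for each of 14080 genes, of which 5032 had 2 or more entries, and rounded.

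Cornea (n = 6) was tested against E3 (n = 3) with edgeR 4.0.16 in R 4.3.3 (TMM factors, filterByExpr, quasi-likelihood F-test, Benjamini-Hochberg threshold 0.05), which left 11727 genes. The SE of a log2 fold change was its size over the root of F. Levels are sums of the authors' FPKM over a gene's entries. On simulated data of this comparison with 11727 genes, 69 of 100 genes changed 2-fold and 93 of 100 changed 4-fold were recovered, and 8 unchanged genes were called. The changed genes were drawn from those with a mean of at least 100 counts. The corneal libraries were simulated as alike, without the sets described above, and far fewer genes were changed than were called here. Recovery of genes with lower counts was not examined. A floor of 3 counts was 0.129 to 0.304 CPM per library; floors and intervals cover counting error only.

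Genes were named by a rule: the 10 largest steady changes each way at a mean of 10 FPKM or more in the higher group, the 5 steadiest (log2 fold change of 2 or more, and for falls 1 FPKM or more in the cornea) and the 5 widest each way, up to 3 called members without overlap per list and direction at a mean of 5 FPKM or more, and 28 landmark genes whether called or not. Not every gene it allows is printed, and some genes are not reported here. The 37 lists (23 of biology, 11 of other cell types, 3 of quality) held 1098 members, of which 910 had an entry and 810 were tested; they give counts and medians only. The members and lists were chosen with earlier results of these data known. Alternatives were DESeq2 1.42.0, RLE factors, no factors, limma 3.58.1 on log2(FPKM + 1), other filters, designs, margins and range limits, and leaving out libraries.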

Additional observations from a re-analysis of the deposited data

Results flagged for a closer look

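In the cornea, 142 genes and 36 list sums were examined for a library far from the other 5, by Dixon's ratio of the gap to the whole range at its 95% critical value, and 8 were found. Chance gives such a gap in about 1 of 20 groups. In E7 library 1 the globin genes HBZ, HBBR and HBA1 stood at 148.3, 165.9 and 65.47 FPKM, the erythroid list summed to 273.3 CPM, and SOX9 stood at 2.54 FPKM, each the highest of the 6 corneal libraries. Even these values lay below all E3 libraries. In E5 library 2 the hyaluronan synthase gene HAS2 stood at 182.0 FPKM, the immediate early gene EGR1 at 47.62 FPKM and CDK6 at 18.31 FPKM, again the highest of the 6. All 3 were called higher in the cornea with that library left out.

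Entries that could not be matched to a gene also separated the groups. Of 1976 such entries with a mean of 10 FPKM or more, 472 were higher in every corneal library than in every E3 library and 362 were lower, together 42.2%. Among matched entries at that level, 50.0% did not overlap, 1367 of them higher and 1833 lower. A corneal range of at most 1 on the log2(CPM + 1) scale was kept by 361 of the 472 and 287 of the 362.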

How the results depend on the processing

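Of 104 alternative values of the 6 gene counts (called, not overlapping and steady, in each direction), 101 stayed within 1.5 times. The exceptions follow from stricter limits: 840 steady rises with a corneal range of at most 0.5, in place of 1720, and 462 rises and 315 falls without overlap where the groups had to be at least 2 times apart on CPM + 1, in place of 2544 and 2658. Library size alone gave 2016 calls higher and 3424 lower, and limma on log2(FPKM + 1) gave 1854 and 3610, 33.9% of its calls being higher. DESeq2 gave 2948 and 2789, only E5 against E3 2280 and 2069, and only E7 against E3 2076 and 1970. Leaving out each library in turn gave 1819 to 2590 calls higher and 1888 to 2466 lower, 2616 to 2836 and 2714 to 2954 genes without overlap, and 1381 to 1876 and 1686 to 2184 steady genes; the lowest counts of calls came without E3 library 2. With E5 library 3 and E7 library 3 both left out, 1550 of the 1720 steady rises and 1864 of the 2106 steady falls were again steady.

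The 140 called genes examined were mostly chosen by their values in these same libraries. Of them, 10 lost their call in some setting: C1QTNF4, CD74, CDK6, CYP26B1, FAM129A, HSD17B2, LUM, NPNT, SNAI2 and VIT. In 30, a log2 fold change moved by over 1.5 times. All but CDK6, at 0.20 with library size alone, did so only with limma on log2(FPKM + 1), a scale that compresses low genes by construction. The genes that missed the threshold had no fixed sign, and both differed between the sets of corneal libraries, as given above. TFAP2A stood at 0.18 with only E7 against E3. TWIST1 stood at -0.14 with library size alone, -0.17 with only E7, -0.18 with limma, and -0.10 to 0.16 when a library was left out. The cause was not tested. TWIST1 was at -0.09 without E5 library 1, -0.03 without E5 library 2, -0.04 without E7 library 3 and -0.10 without E3 library 2. Of 1280 alternative values of 64 list counts, 120 moved by over 1.5 times, 91 of them counts of 5 or fewer.

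The labels number the replicates of each group alike. Deviations of same-numbered libraries from their group means correlated at 0 to 0.08 between cornea and E3 and at -0.48, -0.35 and -0.77 between E7 and E5. E5 library 3 and E7 library 3, each unlike the others of its label, weigh on these deviations. The correlations therefore cannot tell whether same-numbered libraries are paired. A fit with the replicate number as a block called 2163 genes higher and 2199 lower. Depth limits genes near 0 in either group: a library's floor of 3 counts was 0.129 to 0.304 CPM in the cornea, against 0.136 to 0.163 CPM at E3.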

Other observations

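For 4 of 1298 genes with at least 2 entries at a mean of 5 FPKM or more, the summed value hid entries that moved in opposite directions without overlap and by at least 1 on the log2 scale. For EML4, which encodes a microtubule-binding protein, the entry listed under the gene number had 59.0 to 111 FPKM in the cornea, against 24.3 to 25.6 FPKM at E3. A transcript entry of the same gene had 0.47 to 3.93 FPKM in the cornea, against 5.86 to 11.8 FPKM at E3. For PRKG1, which encodes a cGMP-dependent protein kinase, a transcript entry had 30.5 to 46.9 FPKM in the cornea, against 5.20 to 5.88 FPKM at E3, and the entry under the gene number had 1.49 to 3.62 FPKM, against 5.85 to 7.03 FPKM. The other 2 genes were FRMD4A and HNRNPAB. These genes were found after their values were seen, no test was made of single entries, and how reads were divided among entries is not given in the sources used here.

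Steady genes with a log2 fold change of at least 3 either way and a mean of 5 FPKM or more in the higher group were examined for neighbours. Neighbours here are genes next to each other in the genome order of the tested genes alone. Of 59 such rises, 2 (3.4%) were neighbours, the phosphatase gene PTPRO and EPS8, which encodes an actin-capping protein, with log2 fold changes of 3.58 and 3.05. None of the 37 such falls had a neighbour among them. Of all genes tested, 1.0% lay next to 1 of these rises and 0.6% next to 1 of these falls. The 3.4% rests on 1 pair, so that no excess is read from it.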
